A study of Rattus norvegicus with 2 samples.

Results

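Collagen and laminin genes were followed across the cell classes of the rat orbitofrontal cortex, a prefrontal region, after methamphetamine (METH) or saline. The members were every gene whose symbol names a collagen chain (Col, a number, a, a number) or a laminin chain (Lama, Lamb or Lamc with a number), which gave 52 of the 25399 genes in the deposited tables, 42 collagens and 10 laminins. RNA of single nuclei was read in 2 libraries from 8-week-old male Sprague-Dawley rats. The METH group received 1 mg/kg METH into the peritoneum for 7 days and the saline group received saline by the same route for 7 days. Tissue of 4 rats per group was taken, each group is 1 library, and the rats of a library could not be told apart in the files. There was therefore no spread between samples and no test. Each level below is the sum of unique molecular identifiers (UMIs, 1 per captured RNA molecule) over the nuclei of a class, scaled by the class total to the usual CPM unit, and each ratio is log2 METH over saline. Intervals are exact 95% intervals that cover counting error alone, of UMIs or, for a share of nuclei, of nuclei. They do not cover the spread between rats. Both groups were anaesthetised with pentobarbital before the tissue was taken.

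Collagens are triple helices built of 3 chains of the same or related genes. Type IV collagen forms the sheet of basement membranes, fibrillar collagens form the fibrils of connective tissue, fibril-associated collagens (FACITs) sit on those fibrils, and transmembrane collagens stay anchored in the cell surface. Laminins are trimers of an alpha, a beta and a gamma chain that polymerise into the other sheet of the basement membrane. In the brain these sheets wrap the vessels, where endothelial cells, mural cells (pericytes and smooth muscle), fibroblasts and astrocytes all contribute. Several collagens are also made by neurons, among them Col19a1 and the transmembrane Col25a1, which in mice take part in synapse or neuromuscular development.

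After filtering, 5160 METH nuclei and 6558 saline nuclei remained, with 44969322 UMIs in the METH library and 42221257 in the saline library before filtering. Named classes held 2150 METH and 3512 saline nuclei for excitatory neurons, 1287 and 1223 for inhibitory neurons, 428 and 519 for astrocytes, 282 and 363 for oligodendrocytes, and 138 and 195 for oligodendrocyte precursors. The vascular classes were small, with 142 METH and 154 saline endothelial nuclei and 101 METH and 122 saline mural nuclei. Microglia (37 METH and 76 saline nuclei) and fibroblasts (41 METH and 16 saline nuclei) were under the minimum of 50 nuclei per library, so their levels are described without a comparison. Nuclei were deeper in the METH library, with a median of 9406.5 UMIs against 6420 in saline for excitatory neurons. Summed markers placed the labels where the names say for endothelial nuclei (10409 CPM of endothelial markers in METH, 9593 in saline) and mural nuclei (4284 and 3855 CPM of mural markers). Mural nuclei also carried 1041 CPM of excitatory markers in METH and 1500 in saline, against 2657 and 2906 CPM in excitatory neurons. Astrocyte markers in mural nuclei came to 1188 and 1107 CPM. The part of such RNA in the mural values was not tested. Fibroblast nuclei carried 6927 CPM of fibroblast markers in METH and 5879 in saline, beside 5419 and 4431 CPM of astrocyte markers (2 and 5 of 8 at 0), whose part in the fibroblast values was not tested. The 2 libraries shared 9 barcodes.

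Across all kept nuclei the collagens gave 48987 UMIs and the laminins 30317. To count as measured in a class a member needed 100 UMIs in METH and saline nuclei together and 20 CPM in one of the libraries. Of the 52 members 24 reached this in at least 1 of the 9 classes. Summed collagens were highest in fibroblasts, at 4095 CPM in METH and 4080 CPM in saline, and next in mural nuclei, at 2241 and 2359 CPM. Oligodendrocytes were lowest, at 245 CPM in METH and 232 CPM in saline. Summed laminins reached 3359 CPM in METH and 4606 CPM in saline fibroblasts, 2871 and 2463 CPM in mural nuclei, and 1396 and 991 CPM in endothelial nuclei. Oligodendrocyte precursors came close to the endothelial level, at 1167 CPM in METH and 975 CPM in saline, with intervals that overlapped in both libraries. Astrocytes had 204 CPM of laminins in METH and 205 CPM in saline, beside 1679 and 1686 CPM of collagens, while endothelial nuclei had 1677 and 1442 CPM of collagens.

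**Figure D1:**
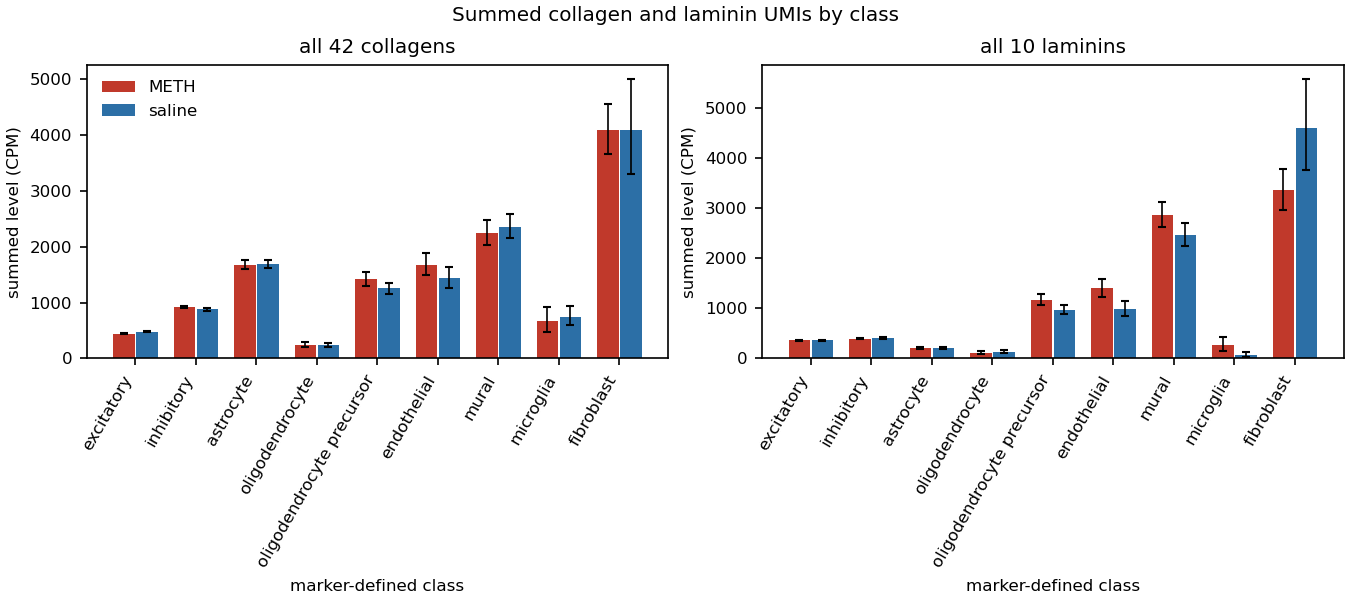
Summed level of all 42 collagens (left) and all 10 laminins (right) in each marker-defined class, in CPM, METH bars left of saline bars, with exact 95% Poisson intervals. Fibroblast and mural nuclei stand highest for laminins. Endothelial nuclei and oligodendrocyte precursors follow, with overlapping intervals. Collagens reach 1679 CPM in METH and 1686 CPM in saline astrocytes, against 1677 and 1442 CPM in endothelial nuclei.

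**Figure D2:**
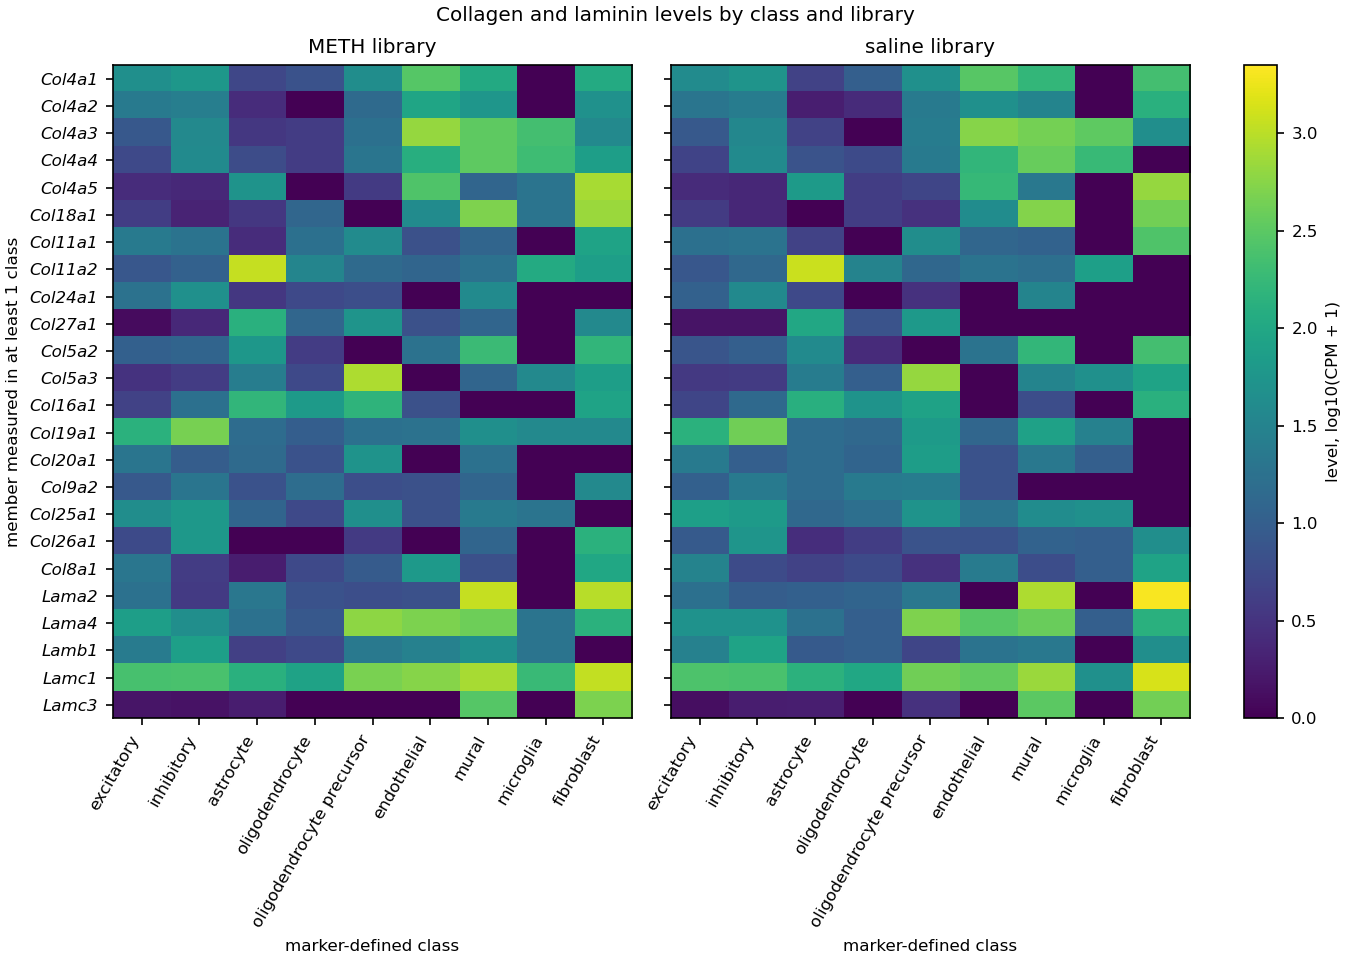
Level of each of the 24 measured members (rows, grouped by role) in 9 classes (columns), as log10(CPM + 1), METH library left and saline library right. Levels are to be read along a row, since chains differ in length and in how they are captured; the single bright cells are Col11a2 in astrocytes and Col5a3 in oligodendrocyte precursors, in both libraries.

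Type IV collagen genes lie in head-to-head pairs, and in the 2 pairs compared the members ran together across cell classes. From these the start regions of Col4a1, Col4a3 and Col4a4 are printed, and that of Col4a2 is not. Whether the layout of the starts bears on the levels was not tested. The sequences are RefSeq promoters of the rat build GRCr8, from 250 bases before the annotated start through the first 50 bases of the transcript, and 41 of the 52 members have one in the table. The start sites of Col4a1 (chromosome 16, plus strand) and Col4a2 (minus strand) lie 77 bases apart, and their windows share 176 bases. Those of Col4a3 (chromosome 9, plus strand) and Col4a4 (minus strand) lie 413 bases apart, and their windows share 88 bases. In the windows of the X-linked Col4a5 and Col4a6 the start sites lie 1415 bases apart, and no base is shared. The levels of this pair were not compared, since Col4a6, with 44 UMIs over the 9 classes, was not among the 30 members compared. Capitals mark the bases that both windows of a pair hold, and the Col4a4 line runs on the opposite strand to the Col4a3 line.
Col4a1, chr16:84885347-84885646, plus strand: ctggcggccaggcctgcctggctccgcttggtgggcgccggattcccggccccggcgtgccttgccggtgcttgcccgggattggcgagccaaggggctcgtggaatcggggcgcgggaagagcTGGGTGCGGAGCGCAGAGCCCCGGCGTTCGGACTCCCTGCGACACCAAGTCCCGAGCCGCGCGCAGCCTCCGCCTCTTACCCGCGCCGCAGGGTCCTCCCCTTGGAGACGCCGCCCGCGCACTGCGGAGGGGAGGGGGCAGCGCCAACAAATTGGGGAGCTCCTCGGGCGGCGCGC
Col4a3, chr9:91323740-91324039, plus strand: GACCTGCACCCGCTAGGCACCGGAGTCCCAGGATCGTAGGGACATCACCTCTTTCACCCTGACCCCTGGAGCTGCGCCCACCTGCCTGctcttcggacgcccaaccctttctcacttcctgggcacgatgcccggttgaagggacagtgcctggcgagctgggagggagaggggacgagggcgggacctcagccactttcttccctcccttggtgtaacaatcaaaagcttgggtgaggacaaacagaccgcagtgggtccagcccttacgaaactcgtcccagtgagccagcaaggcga
Col4a4, chr9:91323528-91323827, minus strand: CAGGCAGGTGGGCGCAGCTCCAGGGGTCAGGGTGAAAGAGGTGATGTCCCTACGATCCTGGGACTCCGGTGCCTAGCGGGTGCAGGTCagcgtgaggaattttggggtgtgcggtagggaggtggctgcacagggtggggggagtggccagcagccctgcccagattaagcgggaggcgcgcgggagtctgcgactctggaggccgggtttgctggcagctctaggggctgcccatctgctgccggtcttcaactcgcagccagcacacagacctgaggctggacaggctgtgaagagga
The GC box GGGCGG, searched on both strands, occurs in the Col4a1 window 2 times, in the Col4a3 window 1 time and in the Col4a4 window 0 times, and 33.1% of all 33365 distinct promoters of that length hold it. The CCAAT box occurs 2 times in the Col4a1 window and in neither the Col4a3 nor the Col4a4 window, against 37.5% of all promoters. The TATA box TATAAA is in none of the 3 printed windows, and 14.2% of promoters hold it. G and C make up 75% of the Col4a1 window, 62% of the Col4a3 window and 65.3% of the Col4a4 window.

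Col4a1 and Col4a2, the chains of the common brain vessel network, were led by endothelial nuclei, Col4a1 in both libraries and Col4a2 in METH. Col4a1 had 292 CPM (51 UMIs) in METH and 297 CPM (50 UMIs) in saline endothelial nuclei, and Col4a2 had 91.6 and 47.5 CPM (16 and 8 UMIs). In mural nuclei Col4a1 had 107 CPM in METH and 166 CPM in saline. Both chains were also read in neurons, at 46.0 CPM in METH and 40.3 CPM in saline excitatory neurons for Col4a1 and 22.4 and 19.0 CPM for Col4a2. In astrocytes Col4a1 had 4.21 CPM (5 UMIs) in METH and 3.54 CPM (4 UMIs) in saline, and microglia had 0 UMIs in both libraries. A count of 0 allows up to 3 UMIs, a one-sided bound of 55.7 CPM in METH and 28.4 CPM in saline microglia, and the two-sided exact interval reaches 68.5 and 34.9 CPM. Across 20 groups (7 non-neuronal classes and 13 neuron sub-groups, each the mean of both libraries on the log2(CPM + 1) scale) the member most like Col4a1 among 30 was Col4a2, with a Pearson r of 0.96, and the next was Lamc1 at 0.77. Those groups share 2 libraries and differ in depth, so this is a description.

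Col4a3 and Col4a4, chains of the network known from kidney and inner ear, had another pattern. Col4a3 was highest in endothelial nuclei, at 658 CPM in METH and 546 CPM in saline, with 332 and 450.1 CPM in mural nuclei. Col4a4 was highest in mural nuclei, at 332 CPM in METH and 367 CPM in saline, with 126 and 160.2 CPM in endothelial nuclei. Microglia held both. There Col4a3 had 223 CPM (12 UMIs) in METH and 331 CPM (35 UMIs) in saline. Col4a4 had 204 CPM (11 UMIs) in METH and 180 CPM (19 UMIs) in saline microglia. Astrocytes had 2.53 CPM of Col4a3 in METH and 3.54 CPM in saline (3 and 4 UMIs). The part of RNA from other cells in the vascular and microglial levels was not tested. Among the 30 members compared Col4a4 was again the nearest to Col4a3 (r = 0.92 over the 20 groups), and the next, Col18a1, was at 0.43.

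Among neurons the Col4a3 and Col4a4 pair was concentrated in Sncg interneurons, a cholecystokinin-type class. There Col4a3 had 252 CPM in METH and 359 CPM in saline, and Col4a4 had 256 and 379.5 CPM. Vip interneurons came next for Col4a3, at 40.9 CPM in METH and 41.4 CPM in saline, while Sst interneurons had 9 and 3 UMIs. The intervals of the Sncg level lay apart from those of every other interneuron group in both libraries. Within the Sncg nuclei the pair sat in a minority. In METH 28 of 121 nuclei had at least 3 UMIs of either gene (23.1%, exact interval over nuclei 16.0% to 31.7%). They held 95.5% of the Col4a3 UMIs and 94.2% of the Col4a4 UMIs. In saline 24 of 84 nuclei had as many (28.6%, 19.2% to 39.5%), with 95.5% and 91.4% of the UMIs. The line was set on the same UMIs, so part of these UMI shares follows from the line itself. Of the 33 METH Sncg nuclei with a Col4a3 UMI 28 also had a Col4a4 UMI (84.8%), against 30.6% of all METH Sncg nuclei, and in saline 24 of 26 did (92.3%) against 39.3%. Endothelial nuclei, the highest class for Col4a3, showed no such excess. There the shares were 13.6% against 14.1% in METH and 14.0% against 14.9% in saline. Mural nuclei, the highest for Col4a4, had 46.3% against 41.6% in METH and 59.2% against 42.6% in saline. An excess was also seen in Vip nuclei, with 40% against 9.84% in METH and 30.8% against 9.50% in saline. Microglia had 58.3% against 29.7% in METH and 37.5% against 18.4% in saline, from 12 and 24 nuclei with a Col4a3 UMI. In Pvalb nuclei the shares were 30.3% against 8.05% in METH and 0% against 5.50% in saline. In Sst nuclei 2.14% had a Col4a4 UMI in METH and 1.75% in saline, at a median depth of 6222 and 4441 UMIs (Sncg, 6573 and 4323). Nuclei at or above the 3-UMI line were deeper than the other Sncg nuclei, with medians of 6998.5 against 6368 UMIs in METH and 5194 against 3761 in saline.

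**Figure D3:**
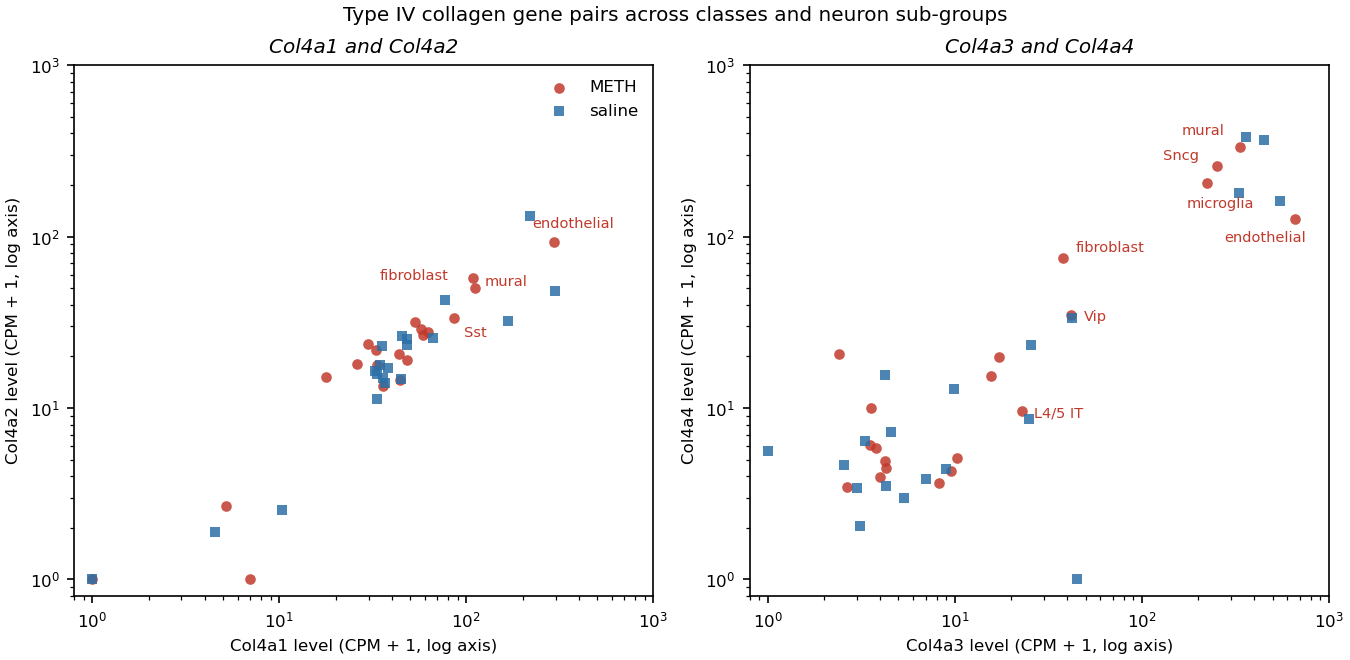
Col4a2 against Col4a1 (left) and Col4a4 against Col4a3 (right), in CPM + 1 on log axes, 1 point per class or neuron sub-group and library (METH circles, saline squares; labels name METH points). The Col4a3 and Col4a4 points of mural, microglial and Sncg nuclei lie at the upper right in both libraries.

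Col4a5, a chain encoded on the X chromosome, was highest in fibroblasts, at 821 CPM in METH and 658 CPM in saline (67 and 15 UMIs), then in endothelial nuclei (263 and 172 CPM). It was near its floor in mural nuclei, with 2 and 4 UMIs. Its neighbour Col4a6 had 8 UMIs in METH and 5 in saline fibroblasts and 44 UMIs over all 9 classes. Col18a1, a multiplexin whose end fragment is endostatin, had 501 CPM in METH and 533 CPM in saline mural nuclei, 711 and 439 CPM in fibroblasts, and 40.1 and 41.5 CPM in endothelial nuclei.

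Laminin chains differed between the cells of the vessel wall. Lama4, the alpha chain typical of endothelium, had 492 CPM in METH and 297 CPM in saline endothelial nuclei and 411 and 378 CPM in mural nuclei. Lama2, the alpha chain lost in merosin-deficient muscular dystrophy, had 1137 CPM in METH and 869 CPM in saline mural nuclei, against 1 and 0 UMIs in endothelial nuclei. Lamc3 followed Lama2 (r = 0.89 over the 20 groups), with 293 CPM in METH and 316 CPM in saline mural nuclei and 0 UMIs in the endothelial nuclei of both libraries. By the same one-sided bound that 0 allows up to 17.2 CPM in METH and 17.8 CPM in saline, and the two-sided exact interval reaches 21.1 and 21.9 CPM. Lamc1, the gamma chain of most laminins, was read in every class, at 549 and 350.0 CPM in endothelial, 816 and 698 CPM in mural, and 84.6 and 99.1 CPM in oligodendrocyte nuclei. Of the beta chains, Lamb2 was highest in endothelial nuclei (195 CPM in METH, 196 in saline) and Lamb1 in inhibitory neurons (77.3 and 88.0 CPM), and for neither did the interval lie apart from every other class. Lama5 was low, with 85.8 CPM in METH and 101 CPM in saline endothelial nuclei (15 and 17 UMIs). Mural nuclei also carried 450.4 CPM of fibroblast markers in METH and 585 CPM in saline, with 4 and 2 of 8 markers at 0, and the part of such RNA in the mural Lama2 and Lamc3 levels was not tested.

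Fibroblast nuclei were few but separated from the rest by several chains. Col1a1 and Col3a1, the main chains of collagen types I and III, each had 22 UMIs in METH and 5 in saline (269.7 and 219 CPM), against 1 and 1 UMIs of Col1a1 and 2 and 2 UMIs of Col3a1 in mural nuclei. Lama1, an alpha chain of the basement membrane under the pia, had 454 CPM in METH and 483 CPM in saline. Lama2 had 981 CPM in METH and 2106 CPM in saline, and 1 saline nucleus gave 27.1% of the saline UMIs. Col13a1, a transmembrane collagen, had 208 CPM in METH and 351 CPM in saline. Of the 52 members 34 had the same highest class in both libraries, counting Col23a1, which had 0 CPM in every saline class. For 8 of these 34 members the interval lay apart from every other class in both libraries. In fibroblasts these were 5 (Col13a1, Col1a1, Col3a1, Col4a5 and Lama1). The others were 1 each in inhibitory neurons (Col19a1), astrocytes (Col11a2) and oligodendrocyte precursors (Col5a3). No share over all genes stands beside these counts, so they describe the members alone.

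In glia, 2 fibrillar chains each stood apart in a class. Col11a2, a chain of the minor fibrillar type XI known from cartilage, had 1146.5 CPM (1362 UMIs) in METH and 1201 CPM (1357 UMIs) in saline astrocytes. The next class, microglia, had 111 CPM in METH and 75.7 CPM in saline, and excitatory neurons had 7.07 and 7.10 CPM. Microglia also carried 1263 CPM of astrocyte markers in METH and 889 CPM in saline (5 and 3 of 8 at 0). The part of such RNA in the microglial Col11a2 level was not tested. After thinning each nucleus to 1000 UMIs, 63.3% of METH and 64.5% of saline astrocytes had a Col11a2 UMI, against 1.40% and 0.798% of excitatory nuclei. Unthinned, these shares were 89.95% and 86.7% of astrocytes (median depth 2421.5 UMIs in METH, 1999 in saline) and 6.79% and 4.58% of excitatory nuclei. Col5a3, a type V chain, had 860.1 CPM in METH and 667 CPM in saline oligodendrocyte precursors, while oligodendrocytes had 3 and 6 UMIs. Astrocytes also held Col16a1 (162 CPM in METH, 129 in saline), Col27a1 (134 and 102 CPM), Col5a2 (58.9 and 39.0 CPM) and Col4a5 (52.2 and 65.5 CPM). Oligodendrocyte precursors were the highest class for Lama4, at 609 CPM in METH and 502 CPM in saline, and their intervals overlapped the next class in both libraries.

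Col19a1, a FACIT, was the collagen with the most UMIs in neurons, 3863 METH and 2509 saline UMIs of them in inhibitory neurons. It had 453 CPM in METH and 424 CPM in saline inhibitory neurons, against 135 and 139 CPM in excitatory neurons. Its order among interneurons was the same in both libraries. Sncg nuclei had 1027 CPM in METH and 838 CPM in saline, Sst 656 and 718 CPM, Lamp5 482 and 379 CPM, Pvalb 195 and 191 CPM, and Vip 123 and 148 CPM. Sncg and Sst overlapped in their intervals in saline. Within a subclass it varied too, and the 5 Sst sub-clusters had 363 to 893 CPM in METH and 303 to 1008 CPM in saline.

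Other chains picked out other interneurons. Col24a1, a fibrillar chain, had 142 CPM in METH and 170.0 CPM in saline Sncg nuclei, against 4.28 and 5.19 CPM in Sst nuclei. Col25a1 was highest among named subclasses in Sncg (139 and 198 CPM) and Sst nuclei (101 and 115 CPM). Lamb1 ran the other way in Sncg nuclei, with 6 UMIs in METH and 0 in saline, against 119 and 140.2 CPM in Sst and 84.1 and 97.7 CPM in Pvalb nuclei. Col26a1 had 86.9 CPM in METH and 65.6 CPM in saline Pvalb nuclei, and 54.9 and 71.2 CPM in Lamp5 nuclei, so the order of these subclasses differed between the libraries. A small unnamed inhibitory sub-cluster led by Unc5b (25 METH and 17 saline nuclei) stood out for 3 chains. Col5a2 had 344 and 409.5 CPM there, Col26a1 331 and 190 CPM, and Col11a1 248 and 190 CPM. Among the 5 named subclasses Col5a2 was highest in Lamp5 nuclei, at 23.9 CPM in METH and 11.3 CPM in saline.

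**Figure D4:**
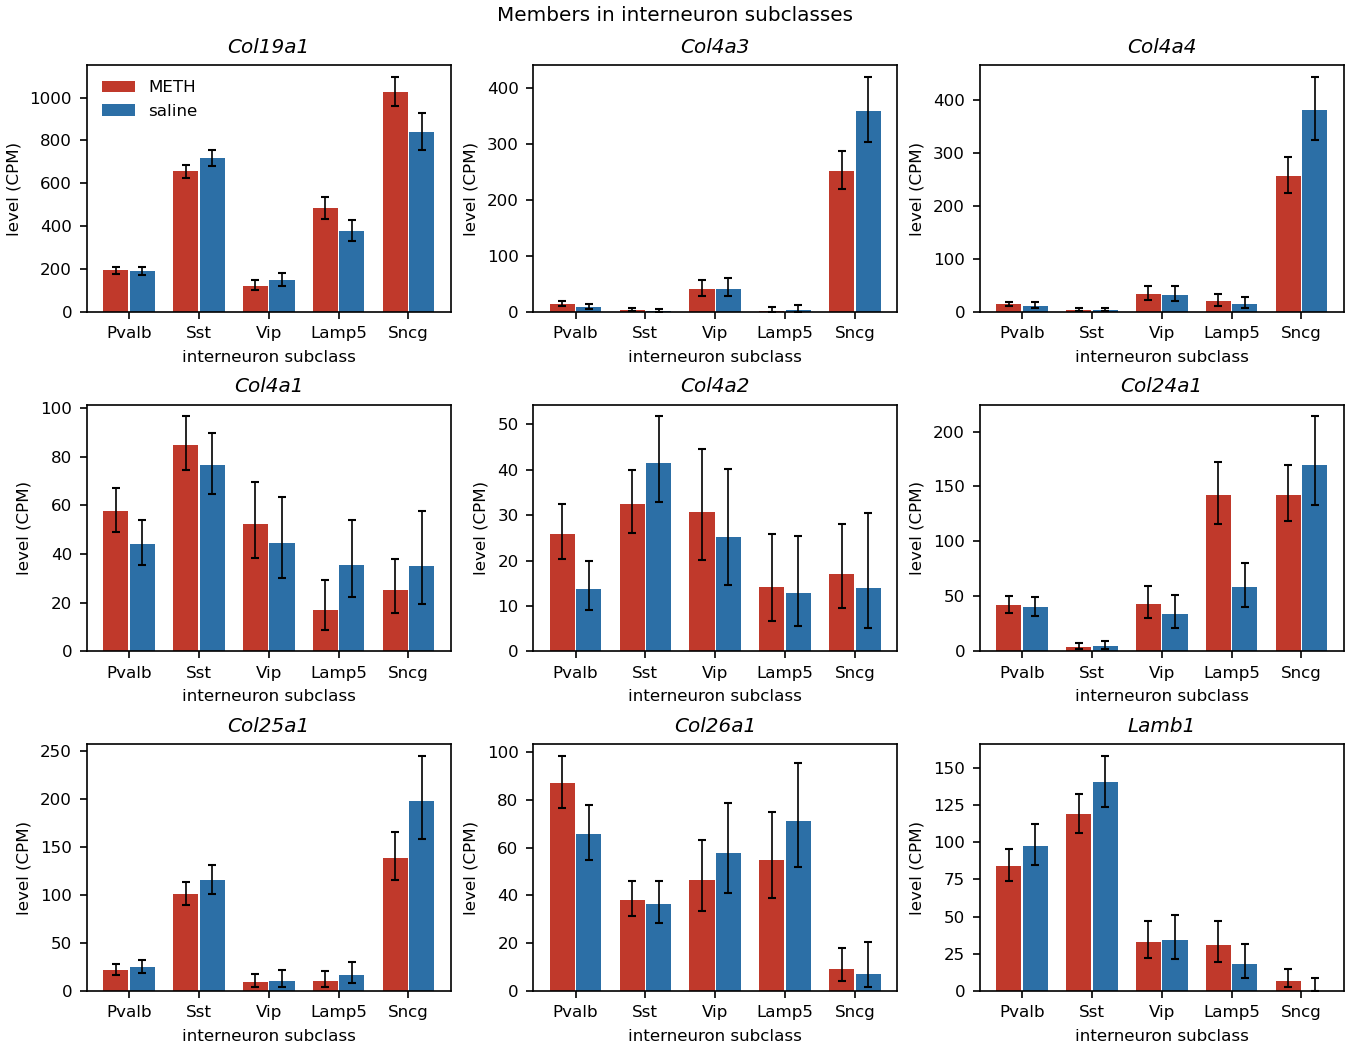
Levels of 9 members in 5 interneuron subclasses, in CPM with exact 95% Poisson intervals, METH bars left of saline bars. Col4a3 and Col4a4 stand in Sncg nuclei (252 and 256 CPM in METH, 359 and 379.5 CPM in saline), where Lamb1 is near 0, and Lamp5 nuclei show the Col24a1 difference (142 CPM in METH, 58.2 CPM in saline).

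Excitatory layers also differed in their chains. A sub-cluster led by Htr4 and Kcnip1, which met no layer name, had 804 CPM of Lama4 in METH and 762 CPM in saline, against at most 41.6 CPM in METH and 31.1 CPM in saline in the other excitatory groups. It also held Col24a1, at 209.5 CPM in METH and 205 CPM in saline, and the next excitatory group, L6 corticothalamic (CT) neurons, had 11.9 CPM in METH and 11.6 CPM in saline. Col8a1, a network-forming chain, was highest in L4/5 intratelencephalic (IT) neurons, at 75.5 CPM in METH and 110.1 CPM in saline. Col14a1, a FACIT, had 30.6 and 25.9 CPM in L5 extratelencephalic (ET) neurons and 56 and 42 UMIs (44.3 CPM in saline) in the Htr4 sub-cluster, against 2 and 12 UMIs in L2/3 IT neurons. Col9a1 had 45.7 and 55.0 CPM in a sub-cluster led by Il1rapl2, and Col13a1 had 30.7 and 26.4 CPM in a sub-cluster led by Pld5, against at most 2.45 CPM in METH and 2.99 CPM in saline in the other excitatory groups.

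METH and saline levels were then set against each other in the 7 classes that held 50 or more nuclei in each library. A ratio was called where its whole interval lay beyond 1.5-fold. Of 43 measured pairs of member and class 1 was called, beside 0.462% of the 25096 pairs over all genes. It was Col25a1, lower in METH excitatory neurons (42.4 CPM, 954 UMIs) than in saline (76.1 CPM, 1951 UMIs), a log2 ratio of -0.84 (-0.96 to -0.73). In excitatory neurons 0.224% of measured genes were called lower. Col25a1 is a transmembrane collagen whose shed ectodomain was found in human amyloid plaques.

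The Col25a1 difference was uneven over layers. L6 CT neurons had 65.0 CPM (158 UMIs) in METH and 203 CPM (505 UMIs) in saline, a log2 ratio of -1.64 (-1.91 to -1.38). L2/3 IT neurons had 34.0 CPM in METH and 66.8 CPM in saline, a log2 ratio of -0.98 (-1.21 to -0.74), and L5 ET neurons had 79.8 and 152 CPM, a log2 ratio of -0.93 (-1.18 to -0.69). In L4/5 IT neurons the levels were 20.3 CPM in METH and 20.7 CPM in saline (-0.03, -0.51 to 0.45), so the L6 CT interval and the L4/5 IT interval did not overlap. The order of the layers changed with this, since L6 CT was the highest excitatory group in saline and L5 ET in METH. In inhibitory neurons Col25a1 had 59.4 CPM in METH and 65.3 CPM in saline (-0.14, -0.33 to 0.06), and in Sncg nuclei 139 and 198 CPM (-0.51, -0.93 to -0.10). In L6 CT nuclei 32.4% had a Col25a1 UMI in METH and 48.0% in saline, and after thinning to 1000 UMIs 8.11% and 14.2%. With thinned counts the L6 CT ratio was -1.17 (-1.89 to -0.50) and that over all excitatory neurons -0.63 (-0.97 to -0.30), and neither was called. The METH nucleus with the most Col25a1 UMIs held 5.70% of the L6 CT total.

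Over the 10 named neuron subclasses 5 of 77 measured pairs were called, beside 0.283% of all 57552 pairs. Of the 5, 3 were Col25a1, and the others were Col11a1 in L2/3 IT neurons and Col24a1 in Lamp5 interneurons. In L2/3 IT neurons 0.312% of measured genes were called lower and 0.0568% higher, in L5 ET neurons 0.228% lower, in L6 CT neurons 0.217% lower, and in Lamp5 interneurons 0.138% higher. Col11a1, a minor fibrillar chain, had 24.0 CPM (167 UMIs) in METH and 9.76 CPM (62 UMIs) in saline L2/3 IT neurons, a log2 ratio of 1.30 (0.87 to 1.74). The ratio was positive in L4/5 IT (20.6 CPM in METH, 10.8 in saline; 0.93) and in deep IT neurons (43.0 and 22.1 CPM; 0.96). In L5 ET neurons it was negative, with 43.9 CPM in METH and 74.7 CPM in saline (-0.77, -1.11 to -0.43). The fibrillar Col24a1 had 142 CPM (101 UMIs) in METH and 58.2 CPM (36 UMIs) in saline Lamp5 nuclei, a log2 ratio of 1.29 (0.72 to 1.88). In Sncg nuclei, where Col24a1 was as high in METH and higher in saline, the ratio was -0.26 (-0.69 to 0.18). With thinned counts both calls were lost, with log2 ratios of 1.08 (-0.21 to 2.45) for Col11a1 and 1.51 (-0.10 to 3.37) for Col24a1. Thinning kept 1000 UMIs per nucleus, against METH and saline medians of 9908.5 and 6851 in L2/3 IT and 5994 and 4276 in Lamp5 nuclei. The intervals widened with the fewer counts, so a lost call by itself does not show a smaller ratio.

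**Figure D5:**
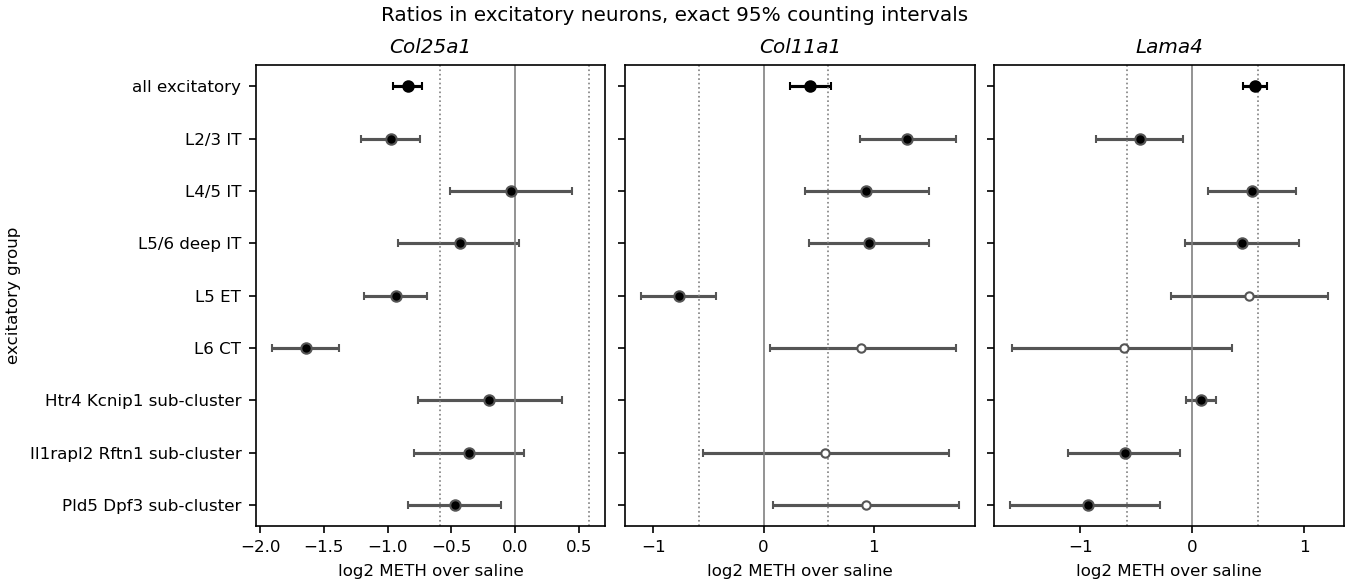
Log2 METH over saline with exact 95% counting intervals for Col25a1, Col11a1 and Lama4 in all excitatory neurons and in 8 excitatory groups (rows). Filled points are measured, open points have fewer UMIs, groups under 20 UMIs are not drawn, and dotted lines mark 1.5-fold. Col25a1 is lowest in L6 CT neurons, Col11a1 crosses 0 between L2/3 IT and L5 ET neurons, and Lama4 is at 0.08 in the Htr4 sub-cluster that holds most of it.

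For 2 excitatory ratios the value was also taken within a sub-group and with clusters weighted alike. Lama4 had 74.2 CPM in METH and 50.2 CPM in saline excitatory neurons (0.56, 0.46 to 0.67). The Htr4 sub-cluster that held most of it had 237 of 2150 METH nuclei and 212 of 3512 saline nuclei, and within it the ratio was 0.08 (-0.06 to 0.21). With the excitatory clusters weighted alike in both libraries the Lama4 ratio was 0.03. Col8a1 had 19.9 CPM in METH and 30.3 CPM in saline (-0.60, -0.77 to -0.43), -0.35 with clusters weighted alike and -0.54 (-0.77 to -0.32) in L4/5 IT neurons.

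In endothelial nuclei 2 laminin chains were higher in METH with intervals above 0 but inside 1.5-fold at their lower end, and neither was called (0.524% of measured endothelial genes were called in either direction). Lama4 had 86 UMIs in METH and 50 in saline (0.73, 0.21 to 1.26), and Lamc1 had 96 and 59 (0.65, 0.17 to 1.14). Summed laminins had 1396 CPM in METH and 991 CPM in saline endothelial nuclei (0.50, 0.21 to 0.79), and summed collagens 1677 and 1442 CPM (0.22, -0.03 to 0.47). Col4a1 was level there (-0.02, -0.62 to 0.57). In mural nuclei Lama2 had a ratio of 0.39 (0.09 to 0.69) and Col4a3 one of -0.44 (-0.94 to 0.05). In Sncg nuclei Col4a3 and Col4a4 were both lower in METH (-0.51, -0.81 to -0.20, and -0.57, -0.87 to -0.27), not past 1.5-fold at the near bound. In oligodendrocyte precursors Col5a3 was at 0.37 (0.14 to 0.59), but at 0.05 (-0.18 to 0.29) with a minimum of 1000 genes per nucleus, and its interval also included 0 with doublets kept, with the 500-gene minimum alone, with a limit of 1% mitochondrial UMIs, at both other clustering resolutions and with thinned counts. In astrocytes Col11a2 was at -0.07 (-0.18 to 0.04). The median log2 ratio over measured members was -0.07 in excitatory neurons (10 members) and 0.05 in inhibitory neurons (12 members), against -0.01 in both over all measured genes. It was 0.13 in astrocytes (6 members), against -0.07 over all genes, and 0.28 in oligodendrocyte precursors (3 members), against 0.01. In endothelial nuclei it was 0.46 (4 members), where the median of all measured genes was itself at 0.11, and in mural nuclei -0.09 (7 members), against -0.03. The 1 member measured in oligodendrocytes, Lamc1, was at -0.23, against a median of -0.12.

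Genes that build, bind or cut these matrices were taken as a list of 66, of which 64 were in the files. None was called in the 7 classes, beside 0.462% of the pairs over all genes. Of the list 18 were measured in excitatory neurons, 21 in inhibitory neurons, 16 in astrocytes and 3 to 9 elsewhere. Eln (elastin) had 286 CPM in METH and 522 CPM in saline endothelial nuclei (-0.87, -1.40 to -0.35), and Mmp16, a membrane protease, 287 and 554 CPM in mural nuclei (-0.95, -1.46 to -0.45). Itgb1, the integrin beta chain that pairs with most collagen and laminin receptors, was at 0.89 (0.28 to 1.52) in mural nuclei. These genes were named because their ratios, up or down, were the largest of the list in their class. In oligodendrocyte precursors Eln was at 0.67 (0.21 to 1.14), Mmp16 at 0.50 (0.32 to 0.68) and Itgb1 at -0.07 (-0.66 to 0.51). Of the list, Fbn1 (fibrillin) alone was called in the neuron sub-groups. It was higher in METH L6 CT neurons, with 40.3 CPM in METH and 18.1 CPM in saline (1.16, 0.63 to 1.70), where 0.159% of measured genes were called higher. It was lower in the METH Pld5 sub-cluster, with 14.4 CPM in METH and 35.6 CPM in saline (-1.31, -2.04 to -0.64), where 0.135% were called lower.

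The other 28 members were not measured in any class, with 2 to 875 UMIs each over the 9 classes and a median of 153. For 12 of them the total was under 100 UMIs. Col23a1 had 2 UMIs and Col6a5 had 6. Of the 28, 8 were highest in fibroblasts in both libraries, and 6, Col13a1, Col14a1 and Col9a1 among them, were measured in a neuron sub-group. Col7a1, the anchoring-fibril collagen of skin, missed the minimum in mural nuclei by 1 UMI, with 58 UMIs in METH and 41 in saline (327 and 212 CPM).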

How the data were processed

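Nuclei of the orbitofrontal cortex were profiled with the 10x Genomics 3' gene expression assay, per the labels' protocols, in 1 METH library and 1 saline library. The deposited matrices hold raw counts (UMIs per gene and barcode) made by the authors with Cell Ranger 7.0.0, per the submitters' processing notes. Those notes name the human build hg38, while the gene identifiers are rat Ensembl identifiers. The rat build behind those identifiers is not given in the sources used.

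A minimum of 500 genes and a limit of 5% mitochondrial UMIs were set for each barcode (5487 of 5543 in METH, 6910 of 6969 in saline passed), and Scrublet doublets were removed at an expected rate of 0.06 (327 in METH, 5.96%, and 352 in saline, 5.09%). Both libraries were clustered together in scanpy 1.11.5 with 2000 variable genes, 30 components, 15 neighbours and Leiden resolution 1 (neurons again at 0.5), leaving out all members and mitochondrial genes. Clusters were named from marker lists, and mixed, shallow or single-library clusters (over 90% from 1 library) stayed unnamed. The naming thresholds were revised 2 times with the clusters' markers in view. Names are X-like classes, written without the suffix.

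UMIs were summed per class and library. Levels have exact Poisson intervals and ratios exact conditional binomial intervals at 95%. With 1 library per group no p-value was computed. The size rule (interval beyond 1.5-fold) was run on simulated Poisson counts, the model that its intervals assume. Those counts hold no spread between nuclei, rats or libraries, so they cannot show how often the rule errs between 2 libraries. Named genes were the measured members of each class, up to 12 by CPM, and the members whose intervals stood apart. Members that stood out in unnamed sub-clusters, in Sncg nuclei or below the minimum were chosen after their values were seen, as was the 3-UMI line in Sncg nuclei. Col6a4 was added to the beaded-filament role after the roles were listed. The members and lists were chosen with earlier results of these data known. Alternatives were other filters, resolutions, genes used to cluster, edgeR 4.0.16 TMM scaling, thinning to 1000 UMIs, equal cluster weights, no highest nucleus and a minimum of 30 UMIs. TMM moved the median of all genes by over 0.1 (log2) in oligodendrocytes alone, by 0.19. The single values of 1 member are not reported here.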

Additional observations from a re-analysis of the deposited data

Results flagged for a closer look

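Col11a1 moved in opposite directions in 2 excitatory groups. Its log2 METH over saline ratio was 1.30 (0.87 to 1.74) in L2/3 IT neurons and -0.77 (-1.11 to -0.43) in L5 ET neurons, with intervals on opposite sides of 0. The difference was not tested, since each group of rats is 1 library.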

How the results depend on the processing

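The counts of calls were recomputed under every alternative. The 24 single ratios were recomputed under all but the minimum of 30 UMIs, which chooses pairs and leaves their ratios as they are. The summed levels were recomputed with doublets kept, a minimum of 1000 genes, members used to cluster, thinning and the 500-gene minimum alone. Col25a1 in excitatory neurons was the call in the 7 classes under every alternative but thinning, where that 1 call was Col8a1 lower. A minimum of 30 UMIs with no CPM minimum gave 3 calls there, adding Lama2 in inhibitory neurons and Col19a1 in oligodendrocyte precursors, both lower. The 5 subclass calls were kept in full under all alternatives but thinning, which left 0. Thinned counts are lower, and their intervals are wider for that reason. Col6a2, higher in METH L4/5 IT neurons, was added with doublets kept (6 calls) and with the 500-gene minimum alone (7 calls), where Col11a1 was also called higher in those neurons. The laminin sum of excitatory neurons was 0.14 with thinned counts, against 0.01. That of oligodendrocyte precursors was -0.014 with doublets kept and -0.0045 with the 500-gene minimum alone (an alternative added after the data were seen), against 0.26. Of the 8 members whose highest class stood apart 3 kept it at a minimum of 1000 genes, where fibroblasts stayed unnamed and endothelial and mural nuclei merged. That setting gives no vascular values. Over the single ratios 243 of 258 values kept their direction or stayed within their interval, 6 lost the call, all with thinning, and 9 moved further. Among those 9 the sign changed without a call for Col9a2 in inhibitory neurons (0.16 with thinning, against -0.27) and Lama4 in oligodendrocyte precursors (-0.19 with doublets kept or with the 500-gene minimum alone, against 0.28). The causes of these moves were not tested. Depth limits the vascular classes, where 573 genes in all were measured in endothelial and 608 in mural nuclei, against 1973 or more in the other compared classes. No paired analysis was possible because each group is 1 library.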

Other observations

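Clusters that met no class name held high levels of 2 collagens. In a cluster led by Bcas1 and Enpp6, genes of newly formed oligodendrocytes, Col20a1 (a FACIT) had 75 UMIs in 25 METH nuclei and 26 UMIs in 17 saline nuclei, 925 and 558 CPM. Oligodendrocyte precursors had 51.2 CPM in METH and 71.4 CPM in saline. In a cluster led by Bnc2, Col11a1 had 82 UMIs in 34 METH nuclei (1078 CPM), and the saline library had 3 nuclei there with 2 UMIs. A cluster led by Ndst4 and Trdn had 201 METH and 2 saline nuclei, and its Lamc1 level in METH was 196 CPM.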
